A study of Mauremys reevesii with 3 samples.

Results

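MicroRNAs (miRNAs) of turtle embryos incubated at 29 °C were compared with those of embryos incubated at 26 °C. The animal was the Chinese pond turtle (Mauremys reevesii), in which egg temperature sets the sex of the hatchling: 26 °C lies in the range that gives mostly males and 29 °C in the intermediate range. Adrenal, kidney and gonad were collected as 1 complex at Greenbaum stage 16, when the gonad starts to respond to temperature. Each temperature had 1 small RNA library, made from the pooled RNA of 3 biological samples, and the 2 libraries compared are part of a series of 3 that also holds one from 32 °C. Incubator temperature was the one difference that the labels state, and a second label calls the source gonad. The dissected block mixes tissues. Fewer cells of a type and less RNA per cell cannot be told apart in it.

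Rows were taken when they had at least 10 counts in either library. The rows of a mature miRNA that appear under several species names were counted once, by the row with the highest summed count. Of the 1743 rows in the table, 1013 had names of known miRNAs and 730 were predicted entries. They came down to 1060 sequences, of which 406 had enough counts to be compared: 199 named miRNAs and 207 predicted entries. A name such as cgr-miR-122 is that of the reference sequence (here from Chinese hamster) and not of the animal. Counts in the table summed to 9624436 at 29 °C and 9348882 at 26 °C, so that 1 count was 0.104 and 0.107 CPM (counts on a common scale, as parts of the table total). Reads appear to have been counted in several rows, since near copies of a miRNA carry like counts. The table total was 2.71 times at 29 °C and 2.68 times at 26 °C that of the rows kept for the 1060 sequences.

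A miRNA is cut as a short duplex from a hairpin RNA, and its strands are named 5p and 3p after the side of the hairpin they come from. One strand is usually loaded into an Argonaute protein, where the bases at positions 2 to 8, the seed, choose the messenger RNAs to be repressed. Many miRNAs are typical of 1 tissue or cell type, and miRNAs of 1 genomic cluster are often made from 1 transcript. miR-202 is known from vertebrate gonads, miR-192 and miR-194 from kidney epithelium, miR-122 from hepatocytes and miR-223 from granulocytes and monocytes.

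The 9 named miRNAs called at 2-fold, by the rule given below, are shown as the table gives them, 5′ to 3′, with the seed in capitals. The uncalled gga-miR-196-5p is added for comparison with hhi-miR-196. The strands of miR-122 and miR-451 were the ones lower at 29 °C, and the rest were higher.
cgr-miR-122: uGGAGUGUgacaaugguguuu
hsa-miR-122-3p: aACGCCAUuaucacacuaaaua
chi-miR-451-5p: aAACCGUUaccauuacuga
hsa-miR-223-3p: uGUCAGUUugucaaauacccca
hsa-miR-223-5p: cGUGUAUUugacaagcugaguu
dre-miR-137-3p: uUAUUGCUuaagaauacgcgua
fru-miR-137: uUAUUGCUugagaauacgcgua
gga-miR-29a-3p: uAGCACCAuuugaaaucgguu
gga-miR-196-5p: uAGGUAGUuucauguuguugg
hhi-miR-196: uAGGUAGUcucauguuguuggg
The last row of the list was called and the miR-196 row above it was not. Counted from 1 at the 5′ end, hhi-miR-196 differs from gga-miR-196-5p by U9C over the shared length, and fru-miR-137 differs from dre-miR-137-3p by A10G, so each pair has 1 seed.

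A sequence was called apart when its ratio of CPM, 29 over 26 °C, was at least 2-fold and the 95% exact conditional (Clopper-Pearson) interval of the 2 counts left out equality. With 1 library per temperature there is no replicate check and no test between temperatures, and intervals cover counting error only. No molecular identifiers are named in the labels, and amplified reads without them are not independent molecules. Of all 406 sequences compared, 22 were called higher at 29 °C (5.42%) and 36 lower (8.87%). Among the 199 named miRNAs the calls were 6 higher (3.02%) and 3 lower (1.51%), 4.52% in either direction, and among the 207 predicted entries 16 higher (7.73%) and 33 lower (15.9%). Named miRNAs held 99.2% of the counts of the kept rows at 29 °C and 99.3% at 26 °C, so most calls fell on entries that make up under 1% of the material. The median log2 ratio was 0.02 over the named miRNAs and -0.03 over all sequences.

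Large differences were found at low abundance. None of the 32 named miRNAs with a mean over 1000 CPM was called, and the largest distance from equality among them was 0.53 on the log2 scale. Of the 35 between 100 and 1000 CPM, 1 was called, which was miR-122-5p. The 59 between 10 and 100 CPM had 2 calls, and the 73 under 10 CPM had 6. The median distance from equality was 0.16, 0.13, 0.26 and 0.46 on the log2 scale in these 4 ranges, from the most to the least abundant. Smaller differences were common: 26 named miRNAs (13.1%) were at least 1.5-fold apart with an interval that left out equality, 16 higher (8.04%) and 10 lower (5.03%), and the interval left out equality at any distance for 99 (49.7%), wholly above it for 54 (27.1%) and wholly below it for 45 (22.6%).

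**Figure D1:**
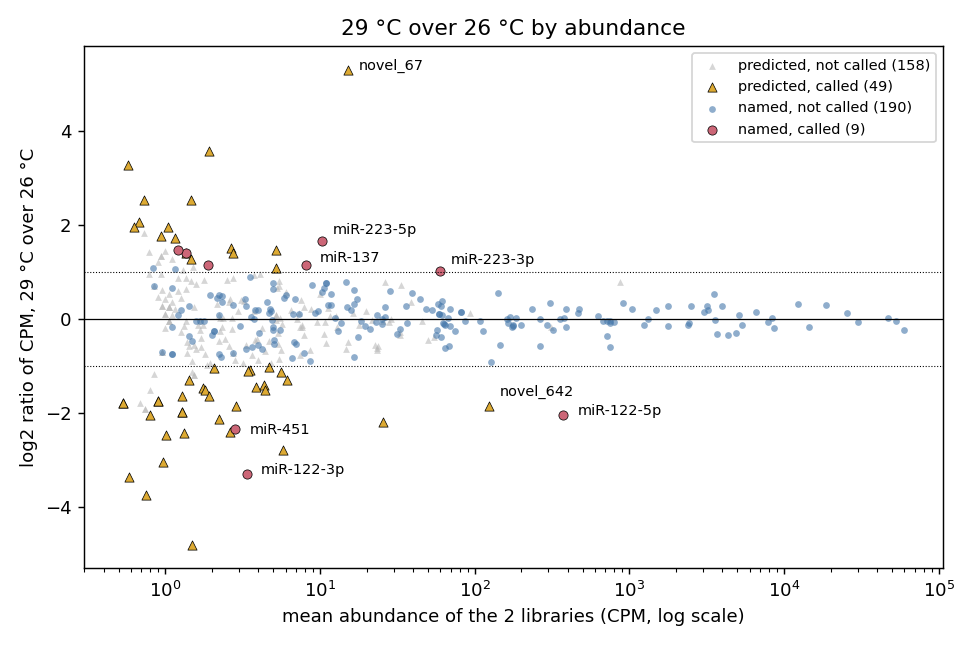
Log2 ratio of CPM (29 over 26 °C, vertical axis) against mean CPM of the 2 libraries (log axis) for the 406 sequences, with circles for named miRNAs and triangles for predicted entries; coloured outlined points were called, and dotted lines mark 2-fold. The cloud narrows to the right, miR-122-5p is the most abundant sequence called, and no sequence over 1000 CPM lies beyond the dotted lines.

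The most abundant called sequence was miR-122, which hepatocytes make in large amounts. Its 5p strand (cgr-miR-122) was counted 1410 times at 29 °C and 5629 times at 26 °C (log2 ratio -2.04, 95% interval -2.12 to -1.95). The rows of miR-122-5p under other species names with enough counts ran from -2.29 to -2.04. The 3p strand (hsa-miR-122-3p), usually the discarded one, was counted 6 times against 57 (log2 ratio -3.29, -4.79 to -2.08). Both strands were thus lower in the 29 °C library, and the 32 °C library, with 1680 and 7 counts, was near the 29 °C one. Liver is not part of the labelled tissue. Summed miR-122, its marker, stood at 147 CPM at 29 °C (exact Poisson 95% interval 140 to 155) against 608 CPM (592 to 624) at 26 °C.

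miRNAs of the exocrine pancreas went the same way, though not past 2-fold. hsa-miR-217 had 855 counts at 29 °C against 1567 at 26 °C (log2 ratio -0.92, -1.04 to -0.79). Its cluster partner mmu-miR-216b-5p had 16 against 26, with an interval that included equality (-0.74, -1.74 to 0.21). The 2 compared members of the pancreas list summed to 90.5 CPM at 29 °C and 170 CPM at 26 °C, and to 83.3 CPM at 32 °C. The part that neighbouring tissue in the dissected block may have in the differences of miR-122 and miR-217 was not tested.

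Striated muscle miRNAs were also mostly lower. mdo-miR-206, made in skeletal muscle, had 528 counts at 29 °C against 766 at 26 °C (log2 ratio -0.58, -0.74 to -0.42). bfl-miR-133, made with miR-1 in skeletal and heart muscle, had 505 against 573 (-0.22, -0.40 to -0.05), and gga-miR-133b had 58 against 105 (-0.90, -1.39 to -0.42). gga-miR-1b-3p stood apart with 58 counts against 36, a ratio in the other direction (0.65, 0.02 to 1.29). Other miR-1 rows lay under the count minimum, and cel-miR-1-3p, bmo-miR-1b-5p and odi-miR-1c each had 5 counts against 9. None of the 6 compared members was called, beside 4.52% of named miRNAs called in either direction. Their median log2 ratio was -0.52, against 0.02 over the named miRNAs. Apart from mdo-miR-206, the lower members all belonged to the miR-133 family (bfl-miR-133, gga-miR-133b, xtr-miR-133d and bta-miR-133c), some of whose rows may share reads. The list summed to 124 CPM at 29 °C and 165 CPM at 26 °C. bfl-miR-133 stood for 11 rows with enough counts, whose log2 ratios ran from -1.01 to -0.22.

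White blood cell miRNAs were higher in the 29 °C library. The major strand hsa-miR-223-3p was counted 774 times at 29 °C and 369 times at 26 °C (log2 ratio 1.03, 0.85 to 1.21). Its partner hsa-miR-223-5p was counted 150 and 46 times (1.66, 1.18 to 2.17). At 32 °C the counts were 380 and 37, close to those at 26 °C, so 29 °C was the high library of the 3. The 3p strand passed 2-fold narrowly, and the lowest of its rows under other names stood at 0.92. aca-miR-142-3p, expressed in all blood lineages, had 126 against 77 (0.67, 0.25 to 1.10), while gga-miR-142-5p had 68 against 46 and an interval that reached below equality (0.52, -0.04 to 1.09). miR-146, which restrains inflammatory signalling, was represented by dre-miR-146a and gga-miR-146b-5p, both with 133 against 76 (0.77, 0.35 to 1.19). Other rows joined under these names had as few as 15 against 16 counts, and row ratios ran from -0.14 to 0.77. The lymphocyte miRNA xtr-miR-150 had 49 against 42 (0.18, -0.44 to 0.81).

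The miR-146 rows are shown because the same reads appear to have been given to both, and they were not joined since their ends differ.
dre-miR-146a: uGAGAACUgaauuccauagaugg
gga-miR-146b-5p: uGAGAACUgaauuccauaggcg
gga-miR-146b-5p differs from dre-miR-146a by A20G and U21C. Of the 7 sequences of the leukocyte list, 2 were called higher, both strands of miR-223, beside 3.02% of named miRNAs and 5.42% of all sequences. At 1.5-fold 5 were higher, against 10.1% of all sequences, among them both rows of miR-146. The list's median log2 ratio was 0.77, against -0.03 over all sequences, and all 7 values lay above 0, from 0.18 to 1.66. This median is itself the value of the miR-146 rows, so it depends on counting them both. The list summed to 149 CPM (141 to 157) at 29 °C and 78.3 CPM (72.7 to 84.2) at 26 °C, with the miR-146 reads entered in both rows.

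Of the 2 red-cell miRNAs compared, miR-451 was lower at 29 °C and the direction of miR-144 was not settled. chi-miR-451-5p, which in mouse and zebrafish is matured by Argonaute 2 instead of Dicer and accumulates in erythrocytes, was counted 9 times at 29 °C and 44 times at 26 °C (log2 ratio -2.33, -3.55 to -1.28). dre-miR-144-5p, from the same cluster, had 11 against 5, with an interval from -0.55 to 2.97. The list summed to 20 counts at 29 °C against 49 at 26 °C (-1.33, -2.16 to -0.56). These counts are few. The 24 counts of miR-451 at 32 °C lay between the other libraries. How much blood each block held was not tested.

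**Figure D2:**
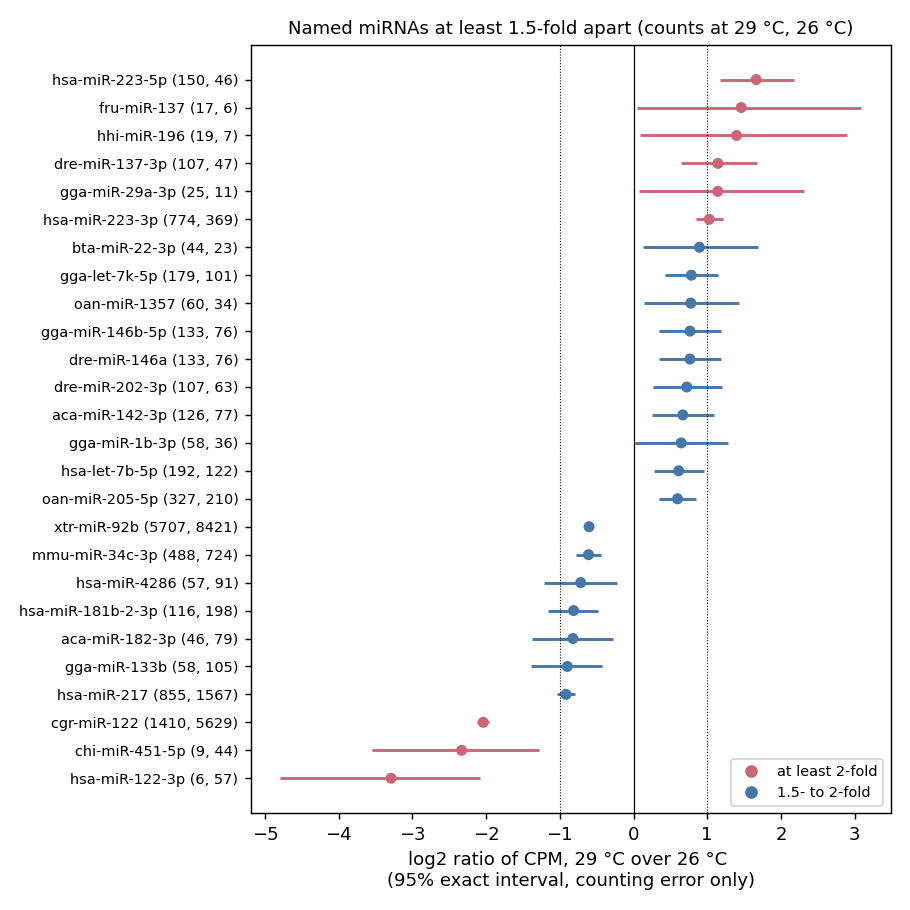
Log2 ratio of CPM (29 over 26 °C) with its 95% exact interval for the 26 named miRNAs at least 1.5-fold apart, with the counts at 29 and 26 °C after each name; red marks the 9 called at 2-fold and dotted lines mark 2-fold. miR-223-5p and the called rows of miR-137 lie near the top, and miR-451 and the strands of miR-122 at the bottom.

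miR-202, the gonad miRNA, was higher at 29 °C by less than 2-fold. mmu-miR-202-5p had 9800 counts at 29 °C against 7500 at 26 °C (log2 ratio 0.34, 0.30 to 0.39), and dre-miR-202-3p stood at 11.1 CPM against 6.74 CPM (0.72, 0.26 to 1.20). At 32 °C both strands were lower than at either of these temperatures, with 3140 and 28 counts. The rows joined under mmu-miR-202-5p ran from -0.65 to 0.34. Of the miR-34 family, known from male germ cells and multiciliated cells, gga-miR-34b-5p had 37077 counts against 45365 (-0.33, -0.35 to -0.31) and mmu-miR-34c-3p had 488 against 724 (-0.61, -0.78 to -0.44). gga-miR-302d, of a family of pluripotent cells and early germ cells, had 135 against 90 (0.54, 0.15 to 0.94). miR-202 and miR-34, both linked to the gonad, therefore differed in opposite directions.
mmu-miR-202-5p: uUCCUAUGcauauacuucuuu
dre-miR-202-3p: aGAGGCAUagggcaugggaaaa

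The abundant kidney miRNA miR-192 was lower at 29 °C by less than 1.5-fold. ola-miR-192-5p had 31766 counts at 29 °C against 38237 at 26 °C (log2 ratio -0.31, -0.33 to -0.29). Its cluster partner mmu-miR-194-5p had 7058 against 7229 (-0.08, -0.12 to -0.03), and hsa-miR-215-5p had 595 against 628 (-0.12, -0.28 to 0.04). In the kept rows the bases at the seed positions were GACCUAU for ola-miR-192-5p and UGACCUA for hsa-miR-215-5p. These overlap with a shift, so they depend on the base at which each kept row starts. Other rows joined under ola-miR-192-5p were not compared for their seed. The 5 compared members had 0 calls, beside 4.52% of named miRNAs called in either direction, and a median of -0.08. Of their intervals 2 lay below equality, beside 22.6% of named miRNAs, and 0 above. The 5 members summed to 4101 CPM at 29 °C and 4934 CPM at 26 °C. In the miR-30 family, needed for kidney tubule formation in the frog Xenopus, hsa-miR-30c-5p had 41863 against 50205 (-0.30, -0.32 to -0.29). mml-miR-30b-5p had 11449 against 12094 (-0.12, -0.16 to -0.08), and the minor strand hsa-miR-30c-2-3p had 6066 against 7608 (-0.37, -0.42 to -0.32). Of its 10 sequences 4 had an interval wholly below equality, beside 22.6% of named miRNAs, and 0 above, with a median of -0.27.

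Most mesenchymal and smooth muscle miRNAs were higher by less than 1.5-fold. ola-miR-143 had 197058 counts at 29 °C against 156073 at 26 °C (log2 ratio 0.29, 0.28 to 0.30). dre-miR-145-5p, made from the same transcript as miR-143 in mammals and known from smooth muscle, had 41735 against 33279 (0.28, 0.26 to 0.31). aca-miR-199a-5p had 33720 against 27074 (0.27) and cgr-miR-214-3p, of the same primary transcript in mammals, 3297 against 2525 (0.34, 0.27 to 0.42). gga-miR-199-3p was nearer to equality, with 50730 against 46390 (0.09). Of 10 sequences, 0 were called, beside 4.52% of named miRNAs called in either direction. The interval lay wholly above equality for 7 and below for 1, beside 27.1% and 22.6% of named miRNAs. The one below was the minor strand hsa-miR-145-3p, with 1819 against 1936 counts (-0.13, -0.22 to -0.04). The endothelial miR-126 was level, with 81466 against 77871 counts of its most counted row, oha-miR-126-5p (0.02), and 3653 against 3496 of mmu-miR-126a-5p (0.02). The rows joined under oha-miR-126-5p included rows labelled 3p. Rows overlapping on either strand were joined, so the strand its reads came from is not settled here.

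**Figure D3:**
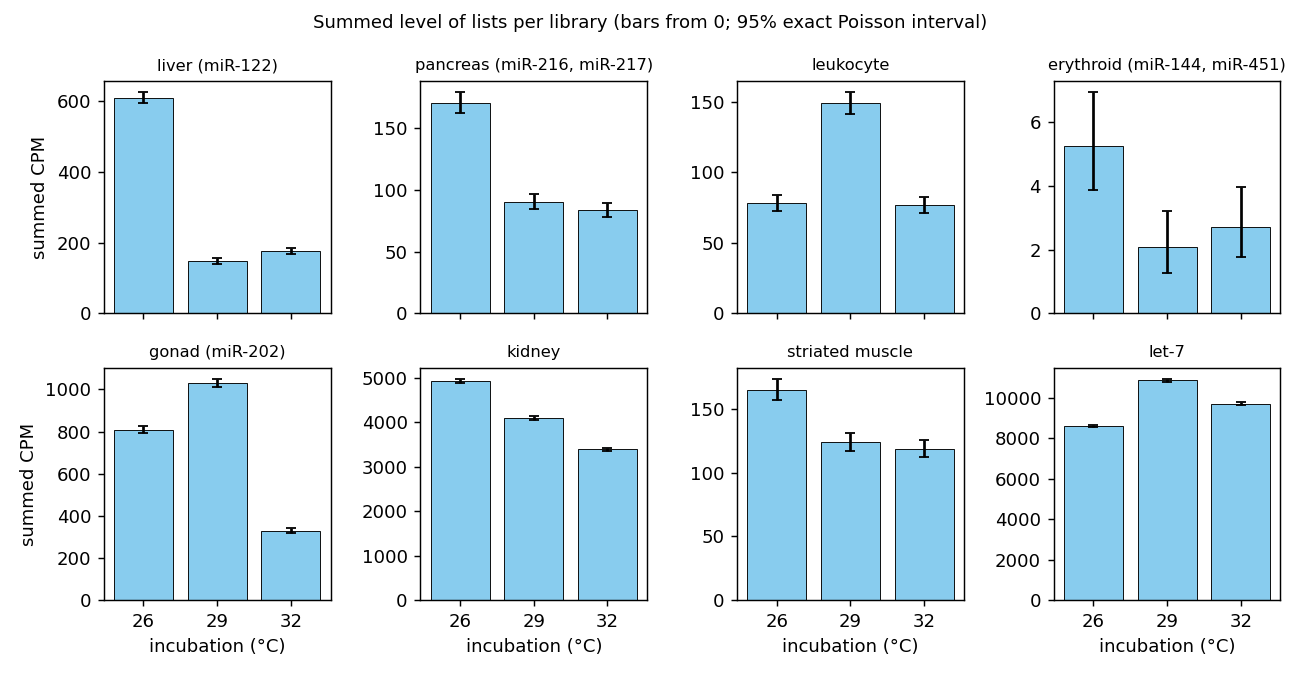
Summed CPM of 8 lists in the 26, 29 and 32 °C libraries, 1 bar per library from 0, with exact 95% Poisson intervals that cover counting error only. The liver list stands at 147 CPM at 29 °C against 608 CPM at 26 °C, and the leukocyte list is highest at 29 °C with 149 CPM.

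The let-7 family, which promotes differentiation and is known as a timer of development, was higher across most members. gga-let-7i had 40083 counts at 29 °C against 26927 at 26 °C (log2 ratio 0.53, 0.51 to 0.55), the farthest from equality among all miRNAs over 1000 CPM. hsa-let-7f-5p had 33006 against 27884 (0.20, 0.18 to 0.22) and efu-let-7c had 18642 against 15045 (0.27, 0.24 to 0.30). At lower abundance gga-let-7k-5p stood at 18.6 CPM against 10.8 CPM (0.78, 0.42 to 1.15) and hsa-let-7b-5p had 192 counts against 122 (0.61, 0.28 to 0.95). Of 16 sequences, 9 had an interval above equality and 1 below, beside 27.1% and 22.6% of named miRNAs. None of the 16 was called, beside 4.52% of named miRNAs called in either direction, and their median was 0.27. The one below was the minor strand hsa-let-7c-3p with 55 against 77. Over the let-7 sequences with the seed GAGGUAG, the summed counts were 85789 at 29 °C and 65319 at 26 °C (0.35, 0.34 to 0.37). The kept row efu-let-7c has UUGAGGU at the seed positions and is not in this sum. Rows of let-7 may share reads, so the intervals and the sum may repeat the same reads.
gga-let-7i: uGAGGUAGuaguuugugcugu
hsa-let-7f-5p: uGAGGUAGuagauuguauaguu
gga-let-7i differs from hsa-let-7f-5p by A12U, A17G, U18C and A19U, all outside the seed.

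The families of miR-99, of miR-100 and of miR-125, which in mammals lie in clusters with let-7, included 5 higher sequences. aca-miR-99b-5p had 132093 counts at 29 °C against 102968 at 26 °C (log2 ratio 0.32, 0.31 to 0.33), hsa-miR-100-5p had 66675 against 58120 (0.16) and bfl-miR-125b had 15261 against 12901 (0.20). The kept row bfl-miR-125b has the seed CACAAGU, as has hsa-miR-125b-2-3p, whereas dre-miR-125a has CCCUGAG. Rows overlapping on either strand were joined, so the strand that the reads of bfl-miR-125b came from is not settled here. Of 10 sequences 5 had an interval above equality, beside 27.1% of named miRNAs, and 0 had one below. In the miR-23, miR-27 and miR-24 clusters, expressed in vessels and mesenchyme, ssa-miR-23b-3p had 1628 against 1071 (0.56, 0.45 to 0.67), efu-miR-27b 30680 against 26690 (0.16) and hsa-miR-24-3p 2426 against 2045 (0.20), with 0 intervals below equality. The 4 of 13 above it are a share near the 27.1% of named miRNAs. Of the 3 sequences just given, miR-23b was the farthest from equality.

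miR-148a, the most counted miRNA, was lower by its kept row, as was miR-148b. ggo-miR-148a had 530316 counts at 29 °C and 603972 at 26 °C, a share of the kept rows of 14.9% (exact Clopper-Pearson 95% interval 14.9% to 15.0%) against 17.3% (17.3% to 17.4%). Its log2 ratio was -0.23, and the rows joined under it ran from -0.23 to 0.17. The log2 ratio of ggo-miR-148b was -0.20 and that of dre-miR-148 -0.26 (-0.41 to -0.11). That of dre-miR-152, with the same seed, was 0.09 (-0.08 to 0.26). Of the 6 sequences of miR-148 and miR-152, 4 had an interval below equality and 0 above, beside 22.6% and 27.1% of named miRNAs. The 10 most counted sequences took 74.7% of the counts of the kept rows at 29 °C and 75.2% at 26 °C.

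The miRNAs of the Hox clusters, which are transcribed with the genes that pattern the body axis, were close to level in sum. hsa-miR-10a-5p had 501252 counts at 29 °C against 497644 at 26 °C (log2 ratio -0.03), mmu-miR-10b-5p 458331 against 439596 (0.02), dme-miR-10-5p 285537 against 288472 (-0.06), aca-miR-10c-5p 257191 against 228821 (0.13) and ssa-miR-10d-5p 132332 against 143590 (-0.16). gga-miR-196-5p had 4885 against 4115 (0.21, 0.15 to 0.27). Rows of the miR-10 family differ by few bases and may share reads. The 1 called row of 14, beside 3.02% of named miRNAs called higher, was hhi-miR-196, which had 19 counts against 7 (1.40, 0.09 to 2.89) and is the U9C version of the abundant miR-196. The list's median of -0.01 changed sign with the scaling of the libraries, as did those of the miR-15/16 list and the list of miR-17, miR-92 and their paralogs.

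miRNAs of cell proliferation had medians near equality. In the miR-15/16 family, which restrains the cell cycle, xtr-miR-16c had 22100 counts at 29 °C against 23552 at 26 °C (log2 ratio -0.13, -0.16 to -0.11), dre-miR-15b-5p had 642 against 514 (0.28, 0.11 to 0.45) and oan-miR-15c-3p 216 against 218. In the clusters of miR-17 and miR-92, which promote growth, hsa-miR-92a-3p had 74227 against 75166 (-0.06), hsa-miR-363-3p 34490 against 33929 (-0.02) and xtr-miR-92b 5707 against 8421 (-0.60, -0.65 to -0.55). The miR-92b value differed among its rows, from -0.77 to 0.20. Among members that share the seed of miR-130, aca-miR-130b-3p had 16191 against 17364 (-0.14) and dre-miR-454b 7091 against 7065 (-0.04). The minor strand mmu-miR-130b-5p had 3551 against 3878 (-0.17, -0.24 to -0.10). Another minor strand, gga-miR-301a-5p, had 1133 against 1615 (-0.55, -0.66 to -0.44). None of these lists held a called member, beside 4.52% of named miRNAs called in either direction.

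Of miRNAs known from neurons, miR-137 was called higher in both of its versions. dre-miR-137-3p stood at 11.1 CPM at 29 °C against 5.03 CPM at 26 °C (log2 ratio 1.14, 0.64 to 1.67), and fru-miR-137 had 17 counts against 6 (1.46, 0.05 to 3.09). At 32 °C they stood at 105 and 31 counts. The versions differ by 1 base and may share reads. Rows named as the 5p strand lay under the count minimum: mmu-miR-137-5p had 6 counts against 6 and mdo-miR-137b-5p 1 against 2. gga-miR-7, made in neurons and in endocrine cells, had 26560 against 21124 (0.29, 0.26 to 0.31), mmu-miR-7b-5p had 2699 against 2845 (-0.12, -0.19 to -0.04), and the minor strand oan-miR-7-1-3p had 256 against 240 (0.05, -0.21 to 0.31). Of 9 sequences 2 were called higher, beside 3.02% of named miRNAs, with a median of 0.20. Other neuronal markers had few counts: mmu-miR-128-3p had 5 counts against 3, ssa-miR-9b-5p 0 against 1 and dre-miR-218b 28 against 30.

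Epithelial miR-205 was higher, with 327 counts of oan-miR-205-5p at 29 °C against 210 at 26 °C (log2 ratio 0.60, 0.34 to 0.85) and 451 against 298 of gga-miR-205b (0.56, 0.34 to 0.77). xla-miR-429, of the miR-200 family that keeps cells epithelial, was level with 6368 against 6380 (-0.04, -0.09 to 0.01). Sequences named miR-200 had at most 3 counts at 29 °C and 7 at 26 °C. In the sensory epithelium cluster of miR-183, aca-miR-182-3p had 46 against 79 (-0.82, -1.38 to -0.28) and chi-miR-182 25 against 38 (-0.65, -1.44 to 0.12). gga-miR-29a-3p, of a family that represses collagen messages, was called on 25 counts against 11 (1.14, 0.07 to 2.31). The other compared member of that family, xtr-miR-29c-5p, had 12 against 15. hsa-miR-21-5p had 119 against 78 (0.57, with an interval above equality) and bta-miR-22-3p 44 against 23 (0.89, 0.13 to 1.69).

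4 broadly expressed families had no called member, beside 4.52% of named miRNAs called in either direction. Medians of the log2 ratio were -0.06 over 6 sequences of miR-181, -0.23 over 5 of miR-103 and miR-107, -0.08 over 3 of miR-26 and miR-101 and -0.05 over 4 of miR-221 and miR-222. All 5 values of miR-103 and miR-107 lay below 0, from -0.72 to -0.04. Intervals lay below equality for 2, 2, 1 and 2 sequences of these families in the order given, beside 22.6% of named miRNAs, and above it for 0. Their most counted sequences were gga-miR-181b-5p with 12769 counts at 29 °C against 12397 at 26 °C, hsa-miR-103a-3p with 22600 against 23278, hsa-miR-101-3p with 49122 against 51744 and bta-miR-221 with 7545 against 7637. Next in abundance came bta-miR-107 with 2865 against 3261, hsa-miR-222-3p with 6765 against 6778, mdo-miR-221-5p with 2549 against 2482 and mmu-miR-181b-1-3p with 478 against 586. Less abundant were dre-miR-107b with 35 against 42, dre-miR-181c-5p with 344 against 352, mmu-miR-101b-3p with 128 against 131 and efu-miR-26a with 49 against 41. The minor strand aca-miR-222a-5p had 995 against 1146 (-0.25, -0.37 to -0.12) and aca-miR-103-5p had 20 against 32 (-0.72, -1.60 to 0.13). A minor strand of the miR-181 family, hsa-miR-181b-2-3p, had 116 against 198 (-0.81, -1.16 to -0.48). Outside the lists 23 named miRNAs were compared and 0 were called, beside 4.52% of all named miRNAs. The farthest by its interval was cgr-miR-1260, with 2055 against 2948 (-0.56, -0.64 to -0.48). In the list of miR-191 and miR-425, aca-miR-425-5p had 1546 against 1586 and mdo-miR-425-3p 36 against 26. In the list of miR-193 and miR-365, ggo-miR-365a had 499 against 418 (0.21, 0.02 to 0.40). These members were below 1.5-fold. rno-miR-203b-5p, of a listed family known from skin, had 15 against 7 with an interval from -0.32 to 2.59.

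**Figure D4:**
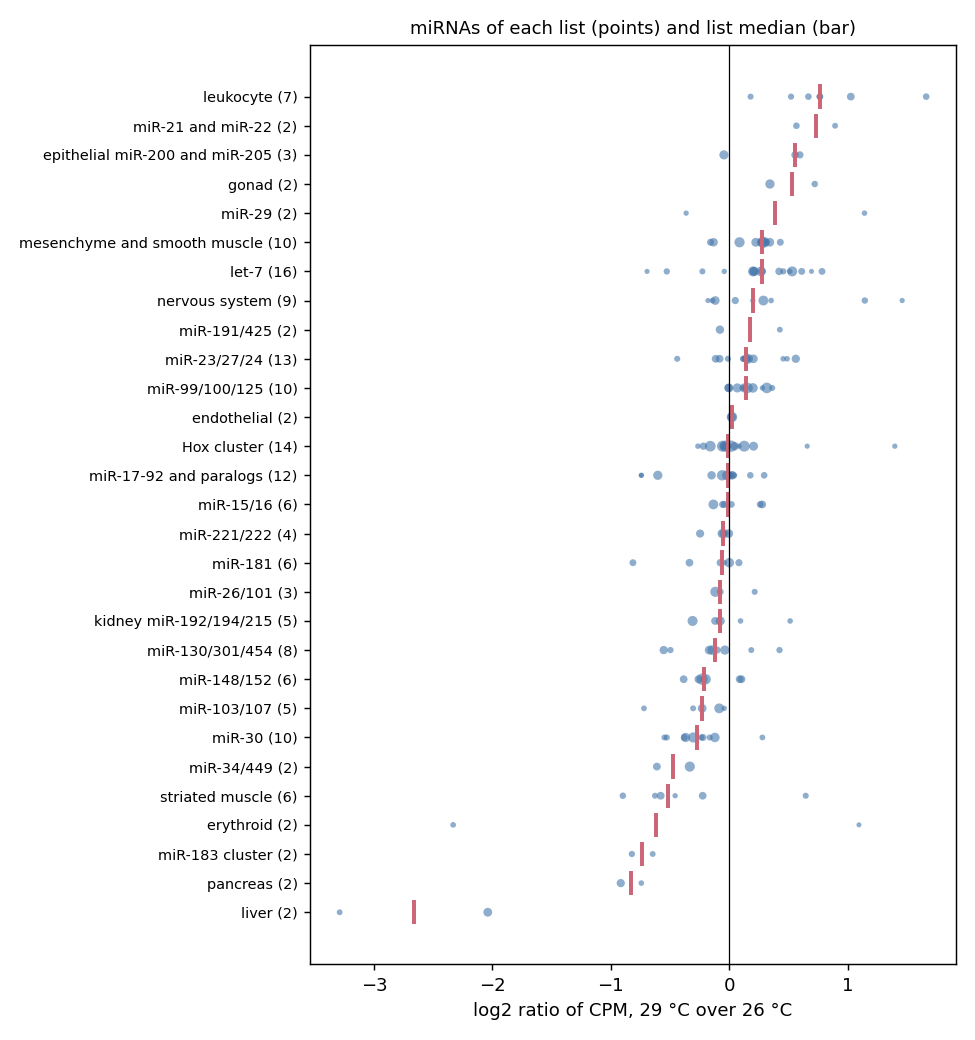
Log2 ratio of CPM (29 over 26 °C) of the compared miRNAs in each list with 2 or more of them (points, larger when more abundant) and the list median (red bar), with the number of miRNAs after the list name. The leukocyte list has the highest median, 0.77, and the liver list the lowest, -2.66. That of the leukocyte list is the value of its miR-146 rows, which appear to hold the same reads. The list of miR-21 and miR-22 comes next at 0.73, so this rank rests on counting miR-146 in both rows.

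Ratios between the strands of 1 hairpin do not depend on how libraries are scaled. Both strands had at least 30 counts over the 2 libraries in 28 hairpins, and in 22 of these both strands lay on the same side of equality. The 5p to 3p ratio was at least 2-fold apart with an interval without equality in 1 hairpin (3.57%), miR-122 (log2 odds ratio 1.25, Fisher's conditional estimate, 0.04 to 2.76), where the minor strand was counted 6 times in the 29 °C library. The farthest from equality by its interval was miR-1306, a hairpin that in human lies in the transcript of DGCR8, a subunit of the complex that cuts miRNA hairpins. There gga-miR-1306-5p had 269 counts at 29 °C against 325 at 26 °C and aca-miR-1306 of the 3p strand 671 against 498, a log2 odds ratio of -0.70 (-0.997 to -0.41). The rows joined under aca-miR-1306 ran from 0.10 to 0.39 in log2 ratio, and the kept row was the highest. A lower row would bring the strand ratio nearer to equality. In miR-145 the log2 odds ratio was 0.42 (0.32 to 0.51) and in let-7c 0.79 (0.28 to 1.32), both with the major strand higher and the minor strand lower at 29 °C.
gga-miR-1306-5p: aCCACCUCcccugcaaacguccagu
aca-miR-1306: uGGACGUUggcucuggugguga

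Predicted entries are rows that the authors' processing proposed as miRNAs without a known name. They had a median mean abundance of 2.32 CPM, against 26.1 CPM for named miRNAs, and a median distance from equality of 0.64 against 0.25 on the log2 scale. Their median length was 22 bases, as in named miRNAs, their median GC content 50% against 45%, and U was the first base of 113 of 207, against 97 of 199. Of the 207, 6 had the seed of a compared named miRNA, among them novel_32 with the seed of miR-130 and novel_42 with that of miR-92. Of these 6, 0 were called, beside 23.7% of all predicted entries. Of the 16 called higher, 15 had a mean under 10 CPM, and of the 33 called lower, 31. With a median of 2.32 CPM, most predicted entries lay under 10 CPM, so a low mean is not particular to the called ones.

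Predicted entries among the farthest apart are shown with novel_16, the most counted of them.
novel_67: aGCUAUGCcacuguaguacgugu
novel_737: uUGAUUACgccaacuagggaau
novel_642: uGUGUCUGucuucgugggc
novel_734: uGCUCAGUgcauuggauucugug
novel_84: aAUGUCCUggcugcuuguugg
novel_780: cACUGUAGugcugugcagaccuu
novel_16: aGGUGUAAacugauauagcucu
novel_67 had 285 counts at 29 °C against 7 at 26 °C (log2 ratio 5.31, 4.24 to 6.63), and 168 at 32 °C. novel_737 had 37 against 0, a log2 ratio of 3.58 with the 0 set to a floor of 3 counts (lower end of its interval 3.21), and 42 at 32 °C. On fewer counts, novel_556 had 13 against 0, novel_633 had 12 against 0 and novel_758 had 24 against 4. Among lower entries novel_642 had 512 against 1805 (-1.86, -2.00 to -1.72) and novel_734 had 88 against 389 (-2.19, -2.54 to -1.85), and at 32 °C these had 121 and 46. novel_84 had 14 against 94 (-2.79, -3.71 to -1.97) and novel_780 had 1 against 27 (-4.80, -10.2 to -2.20). novel_141 had 8 against 41 (-2.40, -3.70 to -1.29). novel_16 had 10646 against 5993 (0.79, 0.74 to 0.83), below 2-fold, with 3823 at 32 °C. Next in abundance were novel_795, with 2817 against 3065 (-0.16, -0.24 to -0.09), and novel_32, with 929 against 830 (0.12, -0.02 to 0.26). None of the 7 printed sequences was matched to a gene, and what kind of RNA they come from was not tested.

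The position of the 32 °C library differed among the called sequences. The 32 over 26 °C ratio uses the same 26 °C library and is given side by side, not as support. The share of all sequences at least 2-fold apart between 32 and 26 °C was not taken, so the counts have no background beside them. Among called predicted entries, 9 of 16 higher and 25 of 33 lower were at least 2-fold from 26 °C on the same side at 32 °C. Of the 6 named miRNAs called higher at 29 °C, 3 were also at least 2-fold above 26 °C at 32 °C: both versions of miR-137 and hhi-miR-196. miR-223-3p, miR-223-5p and gga-miR-29a-3p had log2 ratios of 0.00, -0.35 and 0.20 for 32 over 26 °C. Of the 3 called lower, both strands of miR-122 were at least 2-fold below 26 °C at 32 °C (-1.78 and -3.07), and miR-451 stood at -0.91.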

How the data were processed

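Small RNA libraries from pooled RNA of 3 biological samples per temperature were counted by the submitters, with FastQC and Bowtie named in the submitters' processing notes. What versions, genome build and miRNA reference they used, and how multiply matching reads were counted, is not given in the sources used here. The authors deposited raw read counts per row and the same values as TPM, named so per the file headers. This TPM equalled the count scaled to the column total, with no length term. Coordinates are not given, since no genome was at hand.

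Libraries were assigned by the temperature in the labels and columns by their names. Rows of 1 miRNA name were joined where the strand was the same or at least 16 bases were shared, as were groups whose most counted rows overlapped over at least 16 bases without mismatch on either strand, and the row with the highest summed count stood for each. This second step was added after the table was seen. Ratios used the column totals and 95% exact conditional intervals, with a count of 0 set to a floor of 3. A count of 1 is worth 0.104 CPM at 29 °C, and intervals cover counting error only. No test was possible between single libraries. The ratio step was tested on simulated data.

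The comparison, the miRNA lists and the naming rule were chosen with earlier results of these data known. The rule took the 12 highest and 12 lowest named miRNAs ranked on the nearer end of the interval, the 10 with most counts, the 3 most abundant of each list, and 5 predicted entries at each end. It also took the 3 most abundant predicted entries and the 3 strand ratios farthest from equality. Others named were chosen after their values were seen. Of 104 list names, 64 had a compared miRNA, 15 lay under the count minimum and 25 were not analysed here. Empty lists were cartilage, miR-204/211, miR-210, and miR-184 with miR-31. Alternatives were scaling by DESeq2 1.42.0 size factors or edgeR 4.0.16 TMM, other totals, count minimums, row groupings and call rules. Python 3.11.15, numpy 2.4.6, scipy 1.17.1, pandas 2.3.3, matplotlib 3.10.9 and R 4.3.3 were used.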

Additional observations from a re-analysis of the deposited data

How the results depend on the processing

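No paired analysis was possible because a single library stood for each temperature, and no library could be left out. On the column totals 22 of 406 sequences were called higher and 36 lower, so higher calls made up 37.9%. The counts were 6 and 11 of 221 with at least 50 counts in either library. They were 6 and 11 of 406 where all of the interval had to pass 2-fold, and 41 and 56 of 406 at 1.5-fold. With every row counted they were 37 and 51 of 812. Among named miRNAs alone they were 6 and 3 of 199, where higher calls made up 66.7%. TMM scaling, DESeq2 size factors, the 2 other totals and the 2-fold rule with no interval kept both counts within 1.5 times. So did no count minimum, with 25 and 44 of 1013, though out of more sequences. Rows sharing at least 16 bases counted once gave 22 and 34 of 371, also within 1.5 times. Rows joined by name only (chosen after seeing the data) did the same, with 26 and 40 of 497.

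The median log2 ratio over all sequences was -0.034 on the column totals. It was -0.0172 with TMM, 0.0079 with DESeq2 size factors, -0.0486 without the most abundant row, -0.0167 on the total of the kept rows, -0.0419 with no minimum, -0.0307 with at least 50 counts, 0.0006 with every row, -0.0307 with rows sharing 16 bases counted once, 0.0183 for named miRNAs and -0.0054 with rows joined by name. With at least 100 counts per strand 0 strand ratios were called, since miR-122-3p falls out. Values under other scalings and over joined rows were taken for the sequences of the naming rule, predicted entries among them. Of these values 500 kept their call or lay inside the interval and 106 lay outside it. Reversal was looked for in called sequences only, where 0 reversed. Among all compared named miRNAs, 142 had 2 or more rows over the count minimum. In 14 of these, rows lay on opposite sides of equality by more than 0.1 on the log2 scale. Sequences under 10 CPM rest on few counts.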
